A study of Mus musculus with 12 samples.

Results

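The Hox cluster genes were followed through 4 epithelial states of the mouse small intestine. They were taken as every gene symbol made of Hox, a cluster letter from a to d and a paralogue number. That gave 39 of 23366 gene entries, 11 in the Hoxa cluster, 10 in Hoxb, 9 in Hoxc and 9 in Hoxd. Of the 39, 17 passed the filter on low counts and were tested, 14 had at least 1 count but were not tested, and 8 had no count in any of the 12 libraries. The 8 without a count were Hoxa11, Hoxc10, Hoxc11, Hoxc12, Hoxc13, Hoxd10, Hoxd11 and Hoxd12.

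RNA-seq counts came from 4 groups of 3 biological replicates, all of a mixed C57BL/6 CD1 strain. E12.5 and E14.5 were live cells of the embryonic gut, with the embryonic day as name, selected for EpCAM, an epithelial surface protein, with CD31 (endothelium) and CD45 (white blood cells) excluded. Each E12.5 library pooled 20 embryos; the sources used here give neither the E14.5 pool size nor the embryos' genotype. Intestinal stem cells (ISC) were adult crypt cells with high Lgr5-EGFP fluorescence. Adult epithelium (AE) was sorted from villi with that antibody set and is labelled as enterocytes. Lgr5EGFP-Cre-ERT males at postnatal day 60 supplied ISC and AE alike, 1 gut per library, so every adult library carried that reporter allele. Levels are normalised counts per 1000000 (CPM), as mean ± SD of 3 libraries unless given per library, and a fold is the ratio fitted by the test.

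Hox genes encode homeodomain transcription factors that give cells positional identity along the head-to-tail axis. They lie in clusters lettered a to d, each on its own chromosome, and genes in the same place of different clusters, called paralogues, share a number. Low numbers lie at the 3′ end and are in general switched on earlier and farther towards the head than high numbers, which lie at the 5′ end. In the gut they are best known from the mesenchyme around the epithelium. They bind DNA with cofactors of the TALE homeodomain class (Pbx, Meis), respond to retinoic acid and the caudal factors Cdx1 and Cdx2, and are kept silent or active by Polycomb and trithorax proteins.

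Gene counts per library, in units of 1000000, ran from 12.6 to 45.2, and the counts of all Hox genes summed to between 35 in AE replicate 3 and 2018 in E12.5 replicate 1. The age label of all 6 embryonic libraries names the other embryonic stage than the title; the titles were followed, so the direction of E14.5 against E12.5 rests on them. Reads not uniquely aligned were listed at 0 in the E14.5 and AE libraries and at 1.57 to 2.36 in the same unit in the others. This difference in how such reads were listed cannot be told apart from group in E14.5 against E12.5, ISC against E14.5 and AE against ISC. The split does not cross the comparisons of ISC with E12.5 or of AE with E14.5. The sorted populations carried their markers: 8 summed epithelial genes reached 1804 to 2154 CPM in E12.5 and 12272 to 14170 in AE, and Lgr5 stood at 473 to 551 CPM in ISC against 20.6 to 26.9 in AE. The 15 mesenchymal markers summed to 53.4 to 57.0 CPM (E12.5), 148 to 207 (E14.5), 3.04 to 4.78 (ISC) and 1.797 to 3.77 (AE). Since Hox genes are also active in mesenchyme, changes of such markers are given beside the Hox results, whichever way they went. In such bulk samples, fewer cells of a type and less RNA per cell cannot be told apart.

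The upstream regions of 4 genes are shown, chosen among those with a promoter entry because these genes moved in different ways. Hoxb8 rose in ISC over both embryonic groups, Hoxb4 passed the test against neither, and Hoxa2 and Hoxd4 fell against both. The 250 bases before the annotated start are given 5′ to 3′ on the strand of the gene, from RefSeq on GRCm38.p6, a later build than the mm9 of the counts. They lie at chr11:96281655-96281904 (plus strand) for Hoxb8, chr11:96318017-96318266 (plus) for Hoxb4, chr6:52164832-52165081 (minus) for Hoxa2 and chr2:74721728-74721977 (plus) for Hoxd4, and overlap no annotated exon of GENCODE vM21. The Hoxa2 region lies in an intron of a Gm28308 transcript, and the Hoxd4 region in introns of Hoxd3 and longer Hoxd4 transcripts. Capitals mark TTTATG on either strand, the core of the site bound by caudal (Cdx) factors.
Hoxb8: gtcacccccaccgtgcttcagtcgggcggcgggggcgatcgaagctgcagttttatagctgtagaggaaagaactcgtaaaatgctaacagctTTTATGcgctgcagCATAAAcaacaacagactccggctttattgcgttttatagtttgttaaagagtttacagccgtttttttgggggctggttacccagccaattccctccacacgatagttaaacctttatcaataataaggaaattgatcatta
Hoxb4: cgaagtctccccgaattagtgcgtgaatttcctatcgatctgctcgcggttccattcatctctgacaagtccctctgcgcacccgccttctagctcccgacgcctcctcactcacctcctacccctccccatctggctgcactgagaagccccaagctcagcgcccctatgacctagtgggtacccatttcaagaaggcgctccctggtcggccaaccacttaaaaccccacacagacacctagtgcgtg
Hoxa2: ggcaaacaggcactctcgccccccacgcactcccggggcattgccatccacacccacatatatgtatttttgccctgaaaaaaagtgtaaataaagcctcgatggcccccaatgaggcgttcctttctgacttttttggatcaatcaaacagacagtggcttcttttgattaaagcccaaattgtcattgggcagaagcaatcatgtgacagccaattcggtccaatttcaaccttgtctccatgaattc
Hoxd4: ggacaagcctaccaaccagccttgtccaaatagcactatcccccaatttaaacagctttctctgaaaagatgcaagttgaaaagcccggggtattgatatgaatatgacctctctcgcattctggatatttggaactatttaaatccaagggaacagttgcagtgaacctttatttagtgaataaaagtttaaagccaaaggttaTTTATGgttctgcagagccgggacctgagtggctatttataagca
Hoxb8 holds 2 matches, the far ends of which lie 157 and 143 bases before the start, Hoxd4 holds 1 at 45 bases, and Hoxb4 and Hoxa2 hold none. Of these, Hoxb8 rose and Hoxd4 fell in ISC, and whether the letters go with direction was not tested. Hoxb5, Hoxb6 and Hoxb9, which also rose in ISC over E12.5, had no promoter entry. The promoter table had 24 entries for 22 of the 39 genes, and TTTATG occurred in 5 of the 24, against 10.8% of all 32851 promoters. The other 3 were Hoxa7 (2 matches), Hoxd3 and Hoxd11. TGATTNAT, a site of paired Hox and Pbx proteins, occurred in 2 of 24 against 2.82% of all, in Hoxa2 and Hoxd11. AGGTCA, a core element bound by retinoic acid receptors, occurred in 6 of 24 against 14.02%, among them Hoxb4 and Hoxd4. All motifs were searched on both strands.

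The summed level of the 39 genes was 64.3 ± 2.54 CPM for E12.5, 34.4 ± 3.03 for E14.5, 41.8 ± 9.29 for ISC and 5.98 ± 2.77 for AE. Its makeup by cluster differed between the groups. In E12.5 the Hoxa cluster gave 41.9% of it, Hoxb 37.3%, Hoxd 17.4% and Hoxc 3.41%. In ISC, Hoxb alone gave 91.4% (89.3% to 93.5% in single libraries), Hoxa 6.85% and Hoxd 1.79%, and no Hoxc gene had a count. The Hoxb sum was 24.05 ± 3.64 CPM in E12.5, 16.6 ± 1.38 in E14.5 and 38.2 ± 8.49 in ISC, with no overlap between the libraries of these 3 groups. The Hoxa sum was 26.9 ± 1.65, 11.3 ± 1.42 and 2.84 ± 1.05 CPM in the same order, so both sums were lower in E14.5 than in E12.5, and in ISC the Hoxb sum was higher and the Hoxa sum lower than in either. Fewer genes were detected in the adult: 26 of 39 had a count in all 3 libraries of E12.5, 23 did so for E14.5, 15 for ISC and 6 for AE. Detection depends on depth, and 1 count equals 0.114 CPM in AE replicate 3 and 0.0195 in E14.5 replicate 2.

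**Figure D1:**
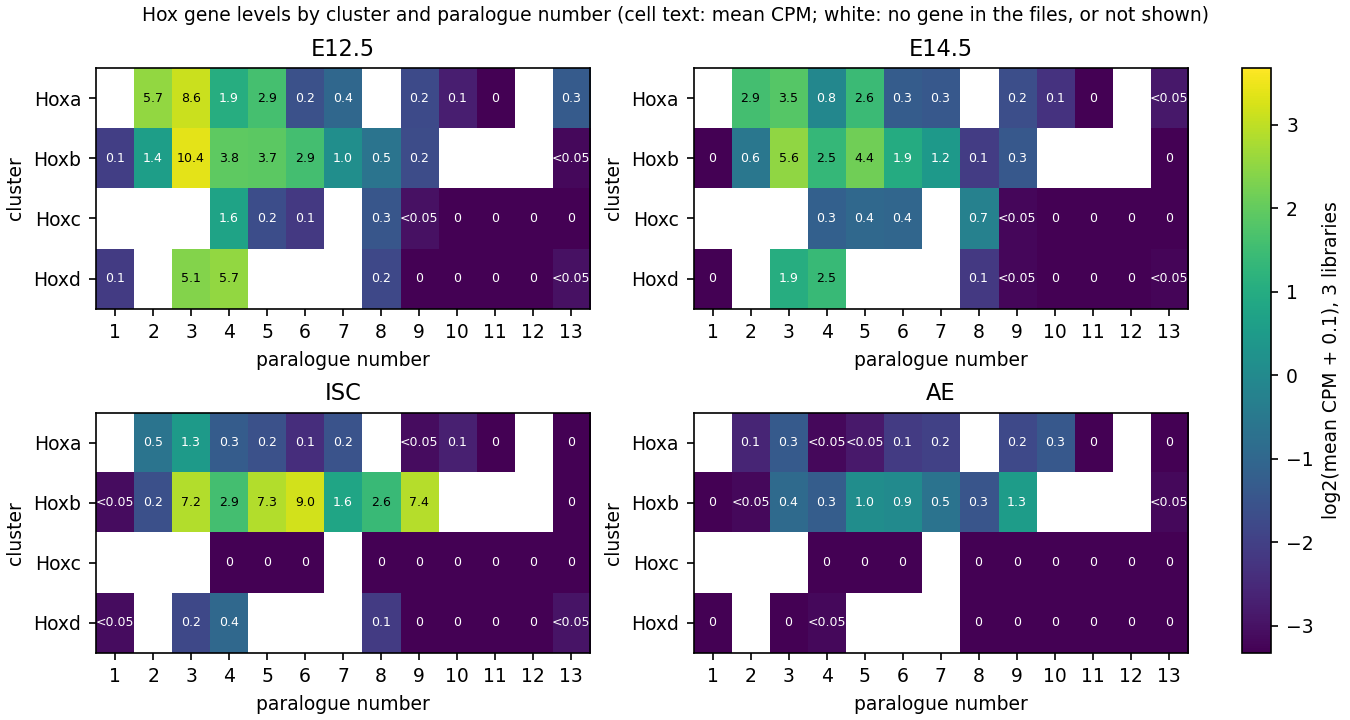
Mean level of each Hox gene in CPM over 3 libraries, by cluster (rows) and paralogue number (columns) in the 4 groups; colour is log2(mean CPM + 0.1) and white cells have no gene in the files or are not shown. The bright low-numbered columns of E12.5 give way to a single bright Hoxb row in ISC, and the Hoxc row is 0 throughout both adult groups.

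The paralogue order changed along the course as well. Paralogues 1 to 3 held 59.2% of the Hox level at E12.5, 43.9% at E14.5, 22.8% among ISC and 16.2% among AE. Paralogues 9 to 13 held 1.27%, 1.86%, 18.2% and 31.4% in the same order. In ISC this class was almost wholly Hoxb9 (7.36 of 7.46 CPM). Hoxa13 of the same class, untested, went the other way, with 24 counts in E12.5, 5 in E14.5 and none in ISC or AE. The mean paralogue number weighted by level was 3.50 ± 0.059 for E12.5, 4.14 ± 0.197 for E14.5, 5.66 ± 0.147 for ISC and 6.44 ± 0.354 for AE, and no library of one group overlapped another group. Within Hoxb alone it was 4.09 ± 0.014, 4.42 ± 0.154, 5.82 ± 0.085 and 6.15 ± 0.724, where AE overlapped ISC. The AE shares rest on 284 Hox counts in 3 libraries. In AE replicate 3, Hoxa9 and Hoxa10 gave 5 and 7 of the 14 counts of paralogues 9 to 13, and the mean number within Hoxb was 5.35.

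**Figure D2:**
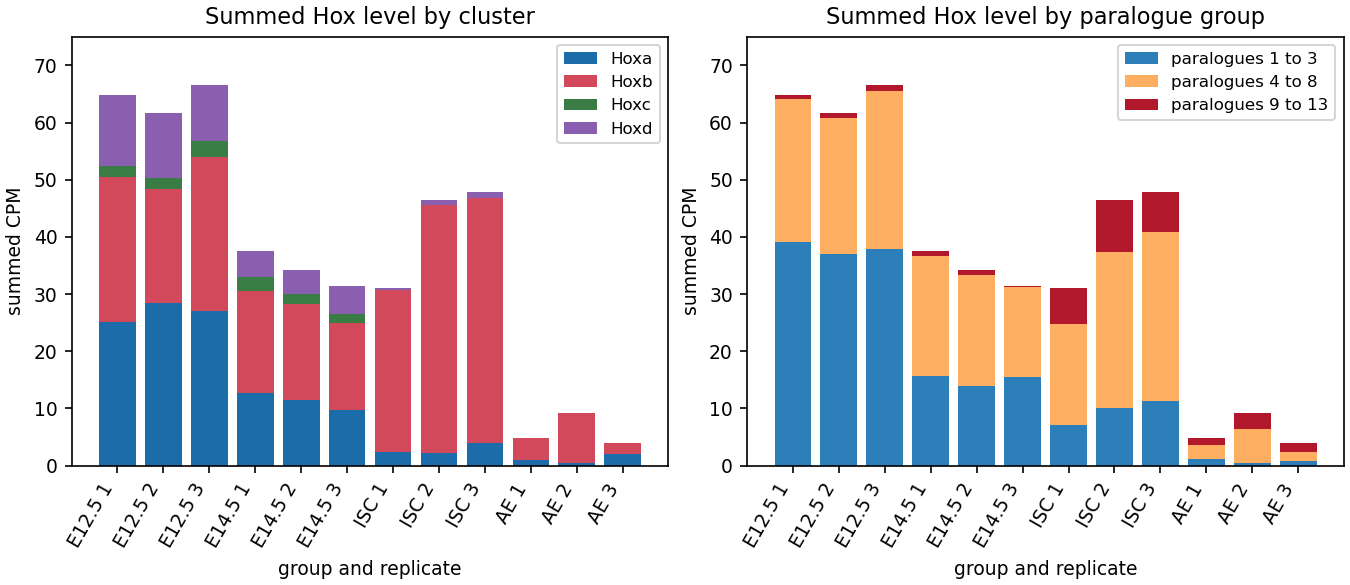
Summed CPM of Hox genes in each library, stacked by cluster (left) and by paralogue group (right). The 3 ISC bars are almost wholly Hoxb and hold 6.34 to 9.10 CPM of paralogues 9 to 13, against 0.18 to 1.03 in the 6 embryonic bars.

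Between E12.5 and E14.5 all 9 tested genes of paralogues 2 to 4 fell, against 25.6% of all genes tested. Of the 7 tested genes of paralogues 5 to 9, 1 fell (Hoxb8), 1 rose (Hoxc8) and 5 did not pass the test. This split differs from the classes above and is a description only, since genes and tests were chosen with earlier results known. In the class of 4 to 8, Hoxa4, Hoxb4, Hoxc4, Hoxd4 and Hoxb8 fell, Hoxc8 rose, and Hoxa5, Hoxb5, Hoxb6 and Hoxb7 did not pass. Hoxa2, a regulator of hindbrain and branchial arch identity, had 5.33, 6.17 and 5.54 CPM in E12.5 and 2.82, 2.93 and 2.99 in E14.5, a fall of 1.95-fold (adjusted p = 0.00416). Hoxa3, known for thymus and parathyroid development, had 7.51, 9.59 and 8.66 CPM and then 3.81, 3.10 and 3.56, a fall of 2.46-fold (adjusted p = 0.00304). For both, every E12.5 library exceeded every E14.5 library. In Hoxd, Hoxd3 had 6.10, 5.20 and 4.04 CPM in E12.5 and 2.02, 1.72 and 2.11 in E14.5, and fell 2.63-fold (adjusted p = 0.00452). Hoxd4 had 5.90, 5.68 and 5.50 CPM and then 2.37, 2.42 and 2.77, and fell 2.27-fold (adjusted p = 0.00184). Both Hoxd genes showed no overlap between the groups. Hoxb3 had 11.1, 8.13 and 11.96 CPM in E12.5 and 5.98, 5.23 and 5.67 in E14.5, a fall of 1.85-fold (adjusted p = 0.00300). It was the most counted Hox gene in both embryonic groups.

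Values of 6 genes are uncertain because over 20% of their 50-base stretches occur in transcripts of another gene: 60.3% for Hoxd3, 51.4% for Hoxb3, 46.8% for Hoxd4, 33.0% for Hoxa11, 25.9% for Hoxb2 and 24.3% for Hoxa3. The partners include Hoxb3os for Hoxb2 and Hoxb3, and Hoxd3 and Hoxd4 for each other. The sources used here do not give the strand setting of the counting, so reads of a gene and of its antisense partner cannot be told apart.

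In all, 11 of the 17 tested genes fell from E12.5 to E14.5, against 25.6% of the 15342 genes tested, and 1 rose, against 23.6%. The libraries did not overlap for 12 lower and 2 higher genes, against 36.2% and 34.4% of all. Over the 4 groups jointly, 16 of the 17 passed, against 93.3% of all genes tested. A gene high in E12.5 alone could pass the filter on that group, which could favour falls in these counts and in the median below. The counts say nothing of the 22 untested members. The median log2 change was -0.96 over the 17 and -0.02 over all genes tested. The genes that fell also included Hoxa4 (2.23-fold), Hoxb2 (2.42-fold), Hoxb4 (1.54-fold), Hoxb8 (3.52-fold) and Hoxc4 (4.51-fold). The calls of Hoxb2, Hoxb4 and Hoxb8 were sensitive to single libraries: Hoxb2 was lost when any 1 of the 6 libraries was left out (adjusted p 0.0532 to 0.147) and with no filter on low counts (0.0525), Hoxb4 without any but E12.5 replicate 2 (up to 0.230) and with no filter (0.0644), and Hoxb8 without any but E12.5 or E14.5 replicate 2 (up to 0.0861). Hoxc8 rose 2.81-fold, from 0.160, 0.355 and 0.293 CPM to 0.897, 0.742 and 0.571. That rise was not called by DESeq2 (adjusted p = 0.0708), nor without E12.5 replicate 1 (0.0763), E14.5 replicate 1 (0.0734) or E14.5 replicate 2 (0.0538). The adjacent Hoxc5 and Hoxc6, both untested, had 17 and 10 counts in E12.5 and 46 and 47 in E14.5. Hoxa5, Hoxb5, Hoxb6, Hoxb7 and Hoxb9 did not pass the test, with fitted log2 changes from -0.59 to 0.52.

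Mesenchymal markers went up over this interval: 13 of 14 tested rose and 1 fell. Of 8 smooth muscle markers 7 rose. Their part in the Hox changes was not tested.

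In adult stem cells Hoxb6, Hoxb8 and Hoxb9 rose over both embryonic groups, while Hoxa2 to Hoxa5, Hoxc4, Hoxc8, Hoxd3 and Hoxd4 fell. Hoxb9, the last gene before the gap that separates Hoxb13, had 6.34, 8.88 and 6.87 CPM in ISC. In E12.5 it had 0.193, 0.178 and 0.257 CPM, and in E14.5 0.374, 0.371 and 0.0879. Every ISC library lay more than an order of magnitude above every embryonic library. Hoxb9 rose 34.3-fold over E12.5 (log2 change 5.10, SE 0.55, adjusted p = 1.61e-06) and 23.9-fold over E14.5 (log2 change 4.58, SE 0.51, adjusted p = 2.78e-06).

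Hoxb6 had 6.72, 9.64 and 10.7 CPM in ISC, against 3.56, 2.49 and 2.60 in E12.5 and 2.09, 2.22 and 1.36 in E14.5. It rose 3.11-fold over E12.5 (adjusted p = 0.000407) and 4.67-fold over E14.5 (adjusted p = 4.21e-05), with no overlap in either comparison. Hoxb8, whose upstream region is printed above, had 1.204, 3.21 and 3.31 CPM in ISC, against 0.674, 0.400 and 0.550 in E12.5 and 0.150, 0.215 and 0.0439 in E14.5. It rose 4.71-fold over E12.5 (adjusted p = 0.00106) and 16.6-fold over E14.5 (adjusted p = 2.40e-05). Hoxb5, a gene known from enteric neural crest and gut mesenchyme, had 5.26, 7.90 and 8.70 CPM in ISC, 3.69, 2.98 and 4.37 in E12.5 and 4.91, 4.45 and 3.78 in E14.5. It rose 1.98-fold over E12.5 (adjusted p = 0.0259) and missed the threshold over E14.5 (1.66-fold, adjusted p = 0.0890), although no ISC library overlapped either group. Without E12.5 replicate 1 or 2, or ISC replicate 2 or 3, the rise over E12.5 was not called either (adjusted p 0.0628 to 0.0933). The rise over E14.5 was called by limma-voom (adjusted p = 0.0442) and with only the 6 libraries of ISC and E14.5 (0.0153). The 3 ISC libraries were not alike: replicate 1 was lowest for Hoxb3, Hoxb5, Hoxb6, Hoxb7, Hoxb8 and Hoxb9.

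At the 3′ end of Hoxb no gene rose. Hoxb3 had 5.39, 8.12 and 8.002 CPM in ISC, just under the E12.5 libraries and overlapping those of E14.5. It fell 1.45-fold against E12.5 (adjusted p = 0.0365) and did not pass against E14.5 (1.28-fold higher, adjusted p = 0.163). The fall was not called without ISC replicate 1 (adjusted p = 0.150), E12.5 replicate 1 (0.0997) or E12.5 replicate 3 (0.144). Hoxb4 had 2.41, 2.67 and 3.65 CPM in ISC and overlapped both embryonic groups, with adjusted p of 0.190 and 0.386. Hoxb2 fell 6.37-fold against E12.5 (adjusted p = 0.00110), on 12 counts in ISC and 112 in E12.5. Against E14.5 it did not pass (adjusted p = 0.0688), but did by DESeq2 (0.0486), by limma-voom (0.0238) and without ISC replicate 2 (0.0198). Hoxb1, untested, had 13 counts in E12.5, of which 10 were in replicate 1, none in E14.5 and 1 in ISC.

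The fitted log2 change from E12.5 to ISC along Hoxb was -2.67 for Hoxb2, -0.53 for Hoxb3, -0.37 for Hoxb4, 0.99 for Hoxb5, 1.64 for Hoxb6, 0.71 for Hoxb7, 2.24 for Hoxb8 and 5.10 for Hoxb9. It thus went up with paralogue number except at Hoxb7 (Spearman rho 0.929 over these 8 genes, given as a description, since the genes share the same 6 libraries). Against E14.5 the same 8 genes ran from -1.40 for Hoxb2 to 4.58 for Hoxb9 (rho 0.905), with Hoxb4 (0.25) below Hoxb3 (0.36) and Hoxb7 below Hoxb6. From E12.5 to E14.5 rho was 0.476, from ISC to AE 0.381 and from E14.5 to AE 1. The order was thus not particular to ISC, though AE held 1 count of Hoxb2. Hoxb7, which broke the order of ISC against both embryonic groups, had 0.824, 2.51 and 1.57 CPM in ISC. It was the only tested Hox gene that did not pass the joint test of the 4 groups (adjusted p = 0.103).

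**Figure D3:**
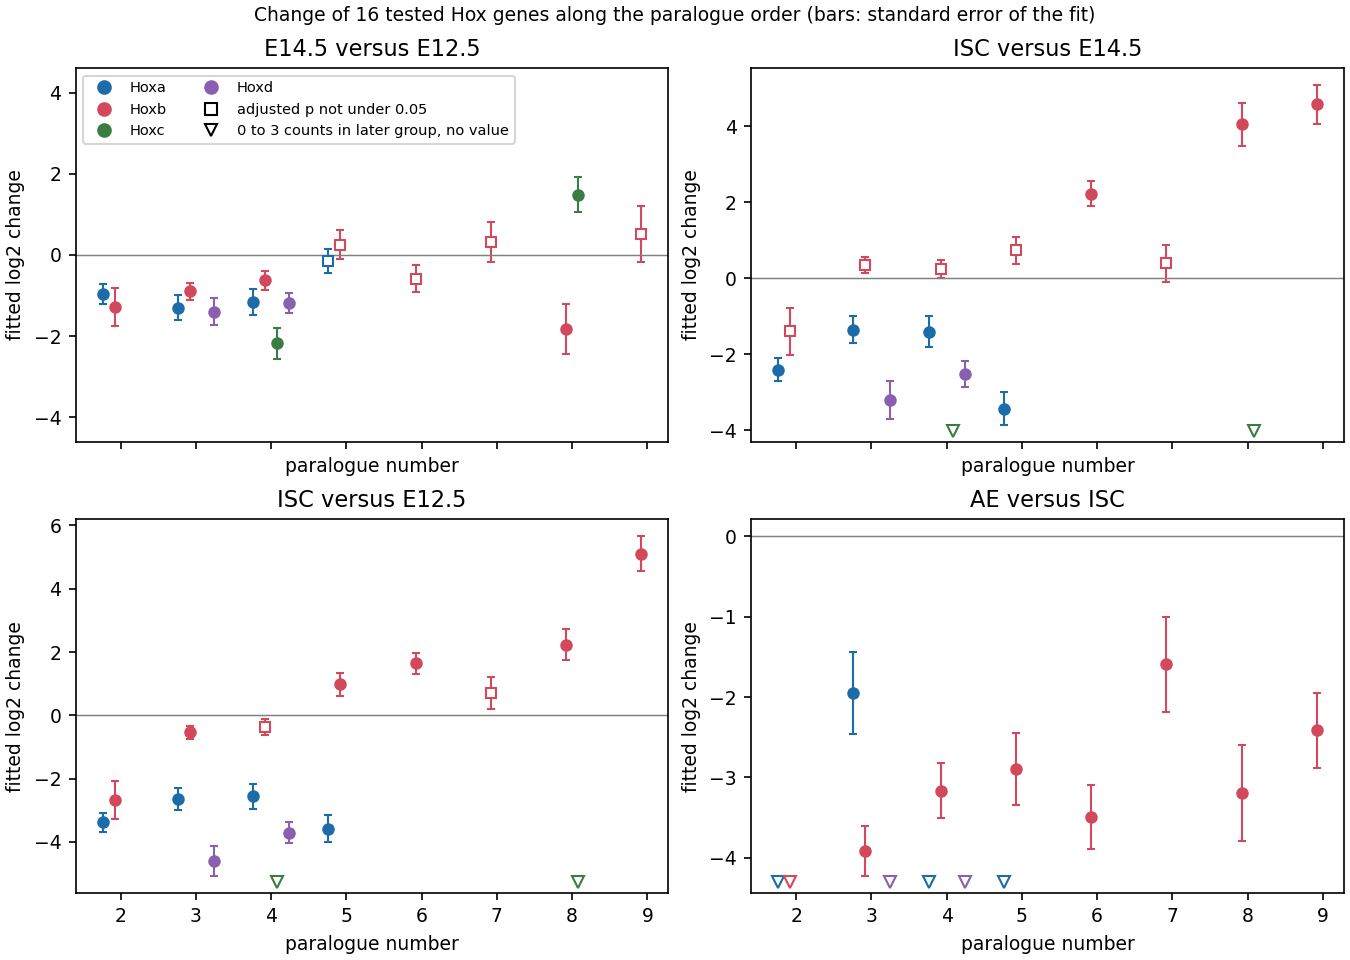
Fitted log2 change with its standard error for 16 of the 17 tested Hox genes, by paralogue number and cluster, in 4 comparisons; open squares did not pass the test and triangles at the lower edge mark genes with 0 to 3 counts in the later group, drawn without a value. The Hoxb points climb from Hoxb2 to Hoxb9 in both ISC panels except at Hoxb7 and, against E14.5, at Hoxb4, while the Hoxa and Hoxd points drawn with a value lie below 0 there.

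Hoxa2, Hoxa3, Hoxa4 and Hoxa5 fell in ISC against both embryonic groups. Hoxa2 had 0.697, 0.381 and 0.565 CPM in ISC and fell 10.3-fold against E12.5 (adjusted p = 1.96e-07) and 5.31-fold against E14.5 (adjusted p = 1.03e-05). Hoxa3 had 0.824, 0.763 and 2.35 CPM, with ISC replicate 3 well above the other 2, and fell 6.27-fold and 2.55-fold (adjusted p = 1.06e-05 and 0.00408). Hoxa5, a gene of lung and foregut mesenchyme, had 0.190, 0.109 and 0.391 CPM in ISC, against 2.31, 3.33 and 3.19 in E12.5 and 3.41, 2.67 and 1.76 in E14.5. It fell 11.9-fold against E12.5 (adjusted p = 4.43e-06) and 10.7-fold against E14.5 (adjusted p = 9.14e-06). Its paralogue Hoxb5 had the opposite direction against E12.5 in the same libraries.

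Hoxd3 had 0, 0.218 and 0.348 CPM in ISC and fell 24.2-fold against E12.5 (adjusted p = 2.80e-06) and 9.19-fold against E14.5 (adjusted p = 0.000127). Hoxd4 had 0.127, 0.545 and 0.565 CPM and fell 13.1-fold and 5.77-fold (adjusted p = 2.16e-07 and 1.93e-05). Both lay below every embryonic library. The Hoxc cluster had no count in any of the 3 ISC or 3 AE libraries, for any of its 9 genes. Set against 3 counts summed over the ISC libraries, which equal 0.0525 CPM, Hoxc4 was at least 29.9-fold lower than in E12.5 and Hoxc8 at least 14.03-fold lower than in E14.5. Hoxc5 and Hoxc6 were at least 7.90-fold and 7.61-fold lower than in E14.5. This limit covers counting error only.

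By counts, 4 tested genes rose in ISC over E12.5 (Hoxb5, Hoxb6, Hoxb8 and Hoxb9), against 33.9% of all genes, and 11 fell, against 34.6%. Over E14.5, 3 rose (Hoxb6, Hoxb8 and Hoxb9), against 30.2%, and 9 fell, against 30.6%. Libraries did not overlap for 4 higher and 11 lower genes against E12.5 (35.9% and 38% of all), and for 4 higher and 10 lower against E14.5 (35.1% and 36.9%). None of the genes that rose lay outside Hoxb. The median log2 change of the 17 was -2.65 against E12.5 and -1.40 against E14.5, beside -0.01 and -0.00 over all genes tested. Both comparisons share the ISC libraries. Genes high only in the embryo could pass the filter on those groups, which could favour falls in these counts and medians. Hoxc4 and Hoxc8, for example, had no count in ISC.

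Mesenchymal markers were also far lower in ISC: 11 of 14 tested fell and 1 rose against E12.5, 13 fell against E14.5, and 5 of 15 had no count in ISC. Smooth muscle and enteric neural markers, other cells of the gut wall, summed to 4.70 to 7.16 and 4.06 to 4.63 CPM in ISC, against 11.5 to 21.5 and 13.3 to 16.8 in E12.5. Their part in the Hox changes between these groups was not tested.

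**Figure D4:**
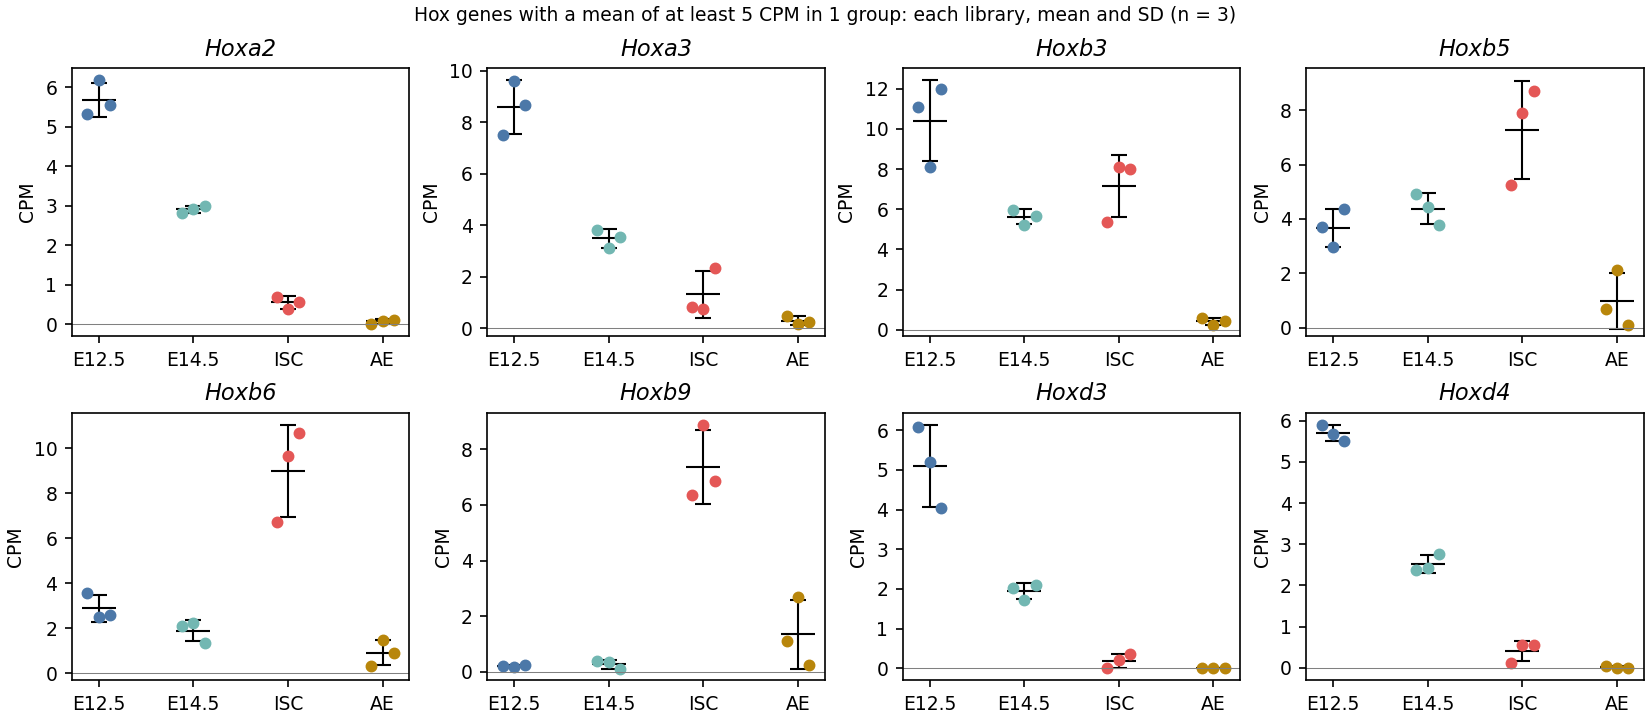
Level in CPM of 8 Hox genes that reached a mean of 5 CPM in at least 1 group, with each library as a point and mean and SD as bars. Hoxa2, Hoxa3, Hoxd3 and Hoxd4 step down from E12.5 onwards, and Hoxb5, Hoxb6 and Hoxb9 are highest in the 3 ISC libraries.

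From stem cells to villus cells the retained Hoxb genes fell too. Hoxb3 had 0.596, 0.245 and 0.457 CPM in AE and fell 15.1-fold against ISC (log2 change -3.92, SE 0.31, adjusted p = 7.90e-08). Hoxb6 had 0.350, 1.47 and 0.914 CPM and fell 11.3-fold (adjusted p = 3.19e-06). Hoxb5 had 0.701, 2.12 and 0.114 CPM and fell 7.43-fold (adjusted p = 5.34e-05). Hoxb9 had 1.12, 2.70 and 0.228 CPM and fell 5.33-fold (adjusted p = 0.000368). For all 4, every AE library was below every ISC library, though the AE libraries were spread widely, by over 10 times for Hoxb5 and Hoxb9. Hoxb4 fell 8.96-fold (adjusted p = 1.89e-06), Hoxb8 9.16-fold (adjusted p = 0.000270) and Hoxb7 3.02-fold (adjusted p = 0.0277), the last with overlapping libraries. Hoxb7 was not called without ISC replicate 2 or 3, or without AE replicate 1 or 3 (adjusted p 0.0524 to 0.128), nor with the 6 libraries of ISC and AE alone (0.0897).

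AE replicate 2 was highest of the AE libraries for Hoxb4, Hoxb5, Hoxb6, Hoxb7, Hoxb8 and Hoxb9. The same library had 494 CPM of Fabp6, an ileal bile acid binding protein, against 116 and 77.8 in replicates 1 and 3. Its Gata4, a factor of the proximal intestine, was 182 CPM against 259 and 285. In ISC, replicate 1, lowest for those Hoxb genes, had the highest Fabp6, 17.0 CPM against 13.9 and 3.74. The part of gut region in these spreads was not tested. Of the stem cell markers, Olfm4 (538 CPM against 641 and 638) and Ascl2 (5.55 against 8.31 and 10.3) were lowest in AE replicate 2, and Lgr5 was highest there (26.9 against 20.6 and 22.5).

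From ISC to AE, 14 of the 17 tested genes fell, against 35.2% of all genes, and 0 rose, against 32.6%. By edgeR, 0 were higher at an unadjusted p under 0.05 as well, and DESeq2 and limma-voom also called 0 higher. Libraries did not overlap for 11 lower and 0 higher genes, against 34.6% and 31.6% of all. All 8 tested Hoxb genes were among the 14. Hoxc4 and Hoxc8 had no count in ISC or AE, which leaves no change to test. Several of the falls rest on few counts: AE held 2 counts of Hoxa2, 1 of Hoxa4, 2 of Hoxa5, 1 of Hoxb2, 1 of Hoxd4 and none of Hoxd3. Hoxa5 was not called without ISC replicate 3 or without AE replicate 1 or 3 (adjusted p 0.0631 to 0.165). Hoxb2 was not called by limma-voom (adjusted p = 0.225) or without any 1 of the 6 libraries but ISC replicate 3 (0.0766 to 0.205). Hoxd3 was not called by limma-voom (adjusted p = 0.0519) or without AE replicate 1 (0.0540). Only 8 Hox genes passed the filter when ISC and AE were tested alone, and 7 of those 8 fell. Hoxa9 and Hoxa10, both untested, had 5 and 7 of their AE counts in replicate 3, where 1 count equals 0.114 CPM. Over this step 0 of 14 tested mesenchymal markers fell and 1 rose, all 5 crypt stem cell markers fell and all 6 enterocyte markers rose. The mesenchymal markers had little room to fall: in ISC, 5 of 15 had no count and 1 was above 1 CPM. The rise was Col6a1, on 3 counts in AE and 0 in ISC.

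Set against E14.5, AE showed 14 falls, against 41.5% of all genes, and 1 rise, against 36.7%. Libraries did not overlap for 13 lower and 0 higher genes, against 43.7% and 37.8% of all. Here too, genes high only in the embryo could pass the filter, which could favour falls. The rise was Hoxb9, 4.48-fold (log2 change 2.16, SE 0.56, adjusted p = 0.00282), although AE replicate 3, at 0.228 CPM, lay within the E14.5 libraries. Hoxb8 overlapped (0.280, 0.490 and 0 CPM in AE, adjusted p = 0.305), and Hoxb7 did not pass (adjusted p = 0.0748) but did without AE replicate 2 (adjusted p = 0.00617), with upper-quartile scaling (0.0355), by DESeq2 (0.0496) and by limma-voom (0.0201). The fall of Hoxb6 (2.41-fold, adjusted p = 0.0134) was not called without AE replicate 1 (adjusted p = 0.128). Hoxd3 had 217 counts in E14.5 and none in AE, at least 32.2-fold lower against the AE floor of 0.0606 CPM. Hoxc4 was at least 5.69-fold lower in AE and Hoxc8 at least 12.2-fold. Markers of gut wall cells were lower in AE as well: all 14 tested mesenchymal and all 8 enteric neural markers fell, and of 8 smooth muscle markers 7 fell and 1 rose. The smooth muscle markers summed to 152 to 205 CPM in E14.5 and 10.3 to 12.6 in AE, and the enteric neural markers to 28.1 to 32.6 and 6.13 to 9.48. In AE, 1 mesenchymal, 2 smooth muscle and 2 enteric neural markers had no count. Their part in the Hox falls was not tested.

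Per kilobase of the longest transcript, the leading genes changed with the group. In E12.5 Hoxa3 (3.31 ± 0.403 CPM per kilobase), Hoxb3 (3.26 ± 0.631) and Hoxa2 (3.20 ± 0.248) came first and did not differ beyond their spread, and Hoxd4 was lower (2.23 ± 0.078). In ISC the order was Hoxb6 (4.58 ± 1.04), Hoxb9 (2.86 ± 0.521), Hoxb5 (2.62 ± 0.646) and Hoxb3 (2.25 ± 0.484), of which the last 3 overlapped. With the median transcript length in place of the longest, Hoxb3 came first in E12.5, E14.5 and ISC, at 8.14, 4.41 and 5.61 CPM per kilobase. Of the untested genes, Hoxa7 had 32 counts at E12.5, 36 at E14.5, 13 among ISC and 11 among AE, and Hoxd9 had 1 count in all.

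Most genes of the TALE class, which holds the Pbx and Meis cofactors and also Tgif1 and Tgif2, fell in the embryo. Of 11 tested, 8 fell from E12.5 to E14.5, against 25.6% of all genes, and 0 rose, against 23.6%, at the adjusted threshold or at an unadjusted p under 0.05 by edgeR. Meis1, a Hox cofactor that also marks progenitors in other tissues, had 68.8, 91.6 and 82.7 CPM in E12.5 and 29.95, 29.9 and 27.8 in E14.5, with 1 count in ISC and none in AE. It fell 2.77-fold between the embryonic stages (adjusted p = 5.69e-06). Meis2 had 18.8 ± 2.69 CPM at E12.5, 19.2 ± 1.35 at E14.5, 1.52 ± 1.41 among ISC and 18.0 ± 3.48 among AE, a fall of 13.5-fold into ISC (adjusted p = 6.91e-06) and a rise of 12.54-fold into AE (adjusted p = 8.05e-06). Pknox2 fell 8.53-fold between the embryonic stages, from 7.71 ± 2.64 to 0.887 ± 0.251 CPM (adjusted p = 1.36e-05). Pbx3 had the other direction in ISC, 17.4 ± 1.24 CPM against 4.59 ± 0.331 in E14.5, a rise of 3.79-fold (adjusted p = 2.71e-07). Of the 11, 3 rose and 6 fell from E14.5 to ISC (30.2% and 30.6% of all genes), 2 rose and 7 fell from E12.5 to ISC (33.9% and 34.6%), and 2 rose and 6 fell from ISC to AE (32.6% and 35.2%).

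**Figure D5:**
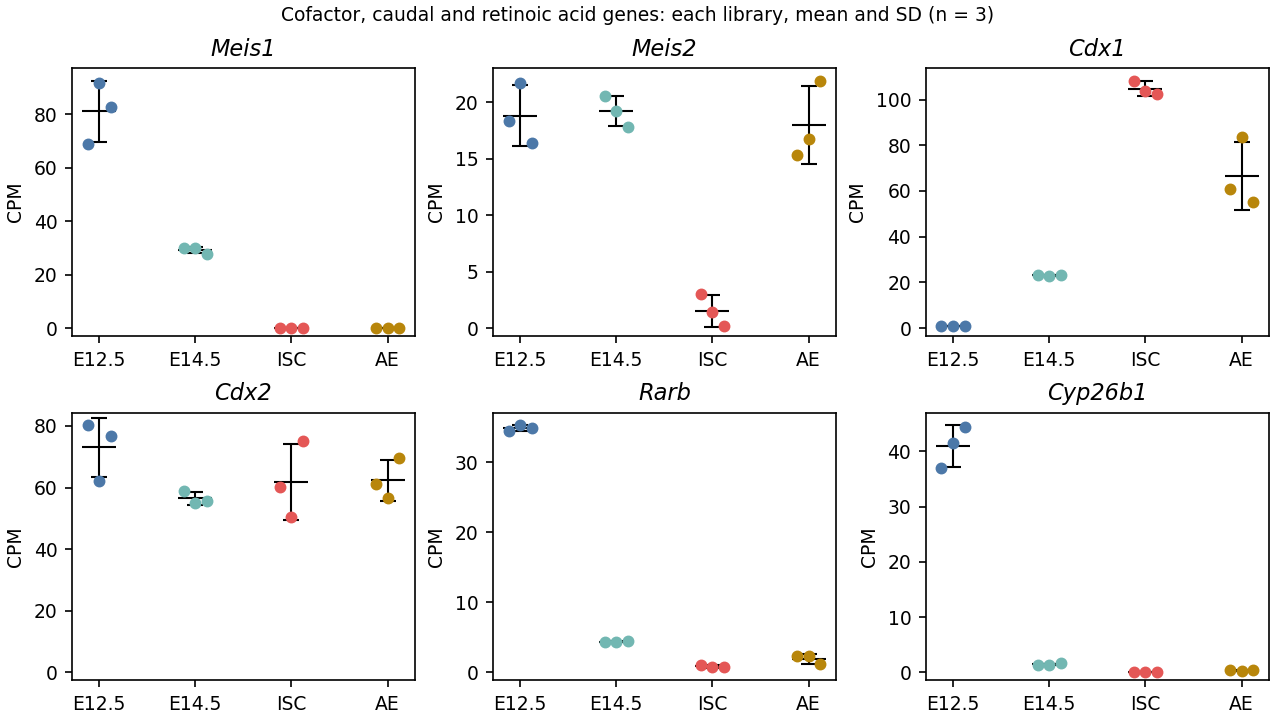
Level in CPM of 2 Hox cofactors (Meis1, Meis2), 2 caudal genes (Cdx1, Cdx2) and 2 retinoic acid genes (Rarb, Cyp26b1), with each library as a point and mean and SD as bars. Meis1, Rarb and Cyp26b1 drop after E12.5, Cdx1 is at 0.73 to 0.93 CPM in E12.5 and 102 to 108 in ISC, and Cdx2 lies between 50.4 and 80.3 CPM in all 12 libraries.

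The caudal genes, ParaHox relatives of the Hox clusters that specify intestine, went in different ways. Cdx1 had 0.930, 0.933 and 0.734 CPM in E12.5, 23.1, 22.9 and 23.3 in E14.5 and 108, 104 and 102 in ISC. It rose 26.6-fold between the embryonic stages (adjusted p = 2.05e-09) and 4.53-fold from E14.5 to ISC (adjusted p = 8.14e-09), then fell 1.57-fold into AE (adjusted p = 0.000564). Cdx2 fell 1.30-fold from E12.5 to E14.5 (73.1 ± 9.60 to 56.5 ± 2.15 CPM, adjusted p = 0.0439) and passed the test in neither adult step. Pdx1, the duodenal and pancreatic member, passed only from ISC to AE among the 3 successive steps (2.71 ± 2.43 to 16.1 ± 3.89 CPM, 6.15-fold higher, adjusted p = 0.00191).

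Among retinoic acid genes, 5 of 14 tested fell and 2 rose from E12.5 to E14.5, beside 25.6% and 23.6% of all genes. Cyp26b1, which degrades retinoic acid, had 36.9, 41.5 and 44.5 CPM in E12.5 and 1.37, 1.33 and 1.63 in E14.5, a fall of 28.7-fold (adjusted p = 2.05e-09). Rarb, a receptor that is itself a target of retinoic acid, had 34.5, 35.4 and 34.9 CPM and then 4.36, 4.27 and 4.44, a fall of 8.01-fold (adjusted p = 2.74e-08). Every E14.5 library was far below every E12.5 library for both. Aldh1a1 and Rdh10, enzymes that make retinoic acid or its precursor, rose 6.13-fold and 2.87-fold (adjusted p = 0.000385 and 2.51e-05). From E14.5 to ISC, 6 fell and 3 rose, beside 30.6% and 30.2% of all. From ISC to AE, 8 rose and 1 fell, beside 32.6% and 35.2%, with the retinol binding protein Rbp2 at 24.6 ± 11.7 and 2111 ± 598 CPM.

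Of 28 Polycomb genes, which keep Hox clusters silent, 7 rose and 11 fell from E12.5 to E14.5, beside 23.6% and 25.6% of all genes, so the share that rose was near that of all genes. Cbx2, a reader subunit whose loss alters axial identity in mice, had 157 ± 7.89 CPM at E12.5, 67.7 ± 3.35 at E14.5, 30.2 ± 2.16 among ISC and 13.4 ± 3.35 among AE. It fell 2.32-fold between the embryonic stages (adjusted p = 8.33e-06) and 5.21-fold from E12.5 to ISC (adjusted p = 3.03e-09). Phf19 rose 5.88-fold between the embryonic stages (adjusted p = 1.17e-06). From E14.5 to ISC 9 rose and 14 fell (30.2% and 30.6% of all genes), and from ISC to AE 4 rose and 19 fell (32.6% and 35.2%). Of 13 trithorax genes and H3K27 demethylases, 2 rose and 6 fell from E12.5 to E14.5, 6 rose and 5 fell from E14.5 to ISC, and 1 rose and 7 fell from ISC to AE, to be read against the same shares. Mll1, the methyltransferase that maintains Hox activity, had 584 ± 28.8 CPM at E12.5, 291 ± 17.8 at E14.5, 737 ± 49.5 among ISC and 271 ± 37.2 among AE. It fell 2.00-fold, rose 2.53-fold and fell 2.72-fold in the 3 successive steps (adjusted p = 9.38e-06, 2.19e-07 and 1.00e-07).

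Of 12 tested genes that flank the Hox clusters, 3 rose and 4 fell from E12.5 to E14.5 (23.6% and 25.6% of all genes), 3 rose and 3 fell from E14.5 to ISC (30.2% and 30.6%), and 4 rose and 5 fell from ISC to AE (32.6% and 35.2%). These shares are near those of all genes. Snx10, beside Hoxa, had 25.6 ± 0.116 CPM in E12.5, 18.1 ± 1.83 in E14.5 and 58.5 ± 7.77 in ISC, a rise of 3.22-fold into ISC (adjusted p = 1.70e-07), while Hoxa2 to Hoxa5 fell. Cbx5, beside Hoxc, fell 1.65-fold over the same step (adjusted p = 0.00161). Of 24 non-coding genes listed for the clusters, 10 were in the files and 1 was tested. Their sum was 1.83 to 2.66 CPM in E12.5 and at most 0.174 CPM in any adult library.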

How the data were processed

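Each library has 1 deposited file of raw read counts by gene symbol, which the authors did not normalise. Per the submitters' processing notes, the build was mm9 and the tools included HTSeq 0.6.1p1, STAR 2.3.1z13, DESeq2 1.6.3, bcl2fastq 1.8.4 and SAMtools 1.2; the sources used here give neither annotation nor strand setting. Per the labels' protocols, 50000 sorted cells gave 50 ng of total RNA for amplified cDNA libraries. Each file has 23366 gene entries and 5 that name no gene, which were left out; reads outside genes were 33.4% to 58.1% of those listed. Amplified reads are not independent molecules.

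Counts of all genes were tested with the quasi-likelihood F test of edgeR 4.0.16 (R 4.3.3), fitting all 12 libraries with 1 coefficient per group, with TMM scaling (factors 0.696 to 1.16). The edgeR expression filter left 15342 genes, and p-values were adjusted over them by the Benjamini-Hochberg method at 0.05. Replicate numbers did not pair the libraries (18 correlations from -0.0806 to 0.0796). Where a group held 1 to 3 counts, counts are given without a fold. Where a group had 0 counts, the bound uses 3 counts over the group. The test was checked on simulated counts for E14.5 against E12.5 only, so that check does not cover the adult comparisons. Alternatives were other scalings, no filter, DESeq2 1.42.0, limma-voom (limma 3.58.1), the 6 libraries compared, a replicate block and each library left out. Hox genes reaching 5 CPM in a group are given per library, except 1 that is not reported here; other genes were named from 16 lists, at most 4 per list, those of at least 5 CPM with the largest change. The genes, lists and tests were chosen with earlier results of these data known. Shared stretches come from GENCODE vM21 transcripts. No coordinates are given on mm9.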

Additional observations from a re-analysis of the deposited data

How the results depend on the processing

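Of 17 tested Hox genes, 12 passed the threshold from E12.5 to E14.5, 12 from E14.5 to ISC and 14 from ISC to AE. From E12.5 to ISC 15 passed, from E14.5 to AE 15 and among any groups 16. In the same order, 49.2%, 60.7%, 67.8%, 68.5%, 78.2% and 93.3% of all genes tested passed. The number of Hox genes past the threshold changed by over 1.5 times in 1 alternative. With only the 6 libraries of ISC and AE, 7 of 8 tested Hox genes were called, because fewer Hox genes passed the filter. With replicate number as a block the counts were 10, 12, 14, 14, 15 and 16 in the same order; the calls lost were Hoxb2 and Hoxb4 from E12.5 to E14.5 (adjusted p = 0.0535 and 0.0651) and Hoxb3 from E12.5 to ISC (0.0509). Leaving out 1 library at a time gave 8 to 11, 12 to 14, 10 to 13, 14 to 15, 15 to 17 and 16 to 18. The filter then left 17 to 19 Hox genes tested, so these counts are not all of the same genes. From E12.5 to E14.5 the share of all genes called was also lower in these fits, at 39.5% to 42.6%. For 2 changes that had not passed the test the sign reversed. Hoxa5 from E12.5 to E14.5 did so without E14.5 replicate 3 (log2 0.057, with all 13 alternatives between -0.380 and 0.057). Hoxb7 from E14.5 to ISC did so without ISC replicate 2 (log2 -0.030, with all 13 alternatives between -0.030 and 0.695). The cause was not tested. Upper-quartile scaling moved the median of all genes by -0.20 from ISC to AE and -0.24 from E14.5 to AE, and with it the share of called genes that were higher, from 48.1% to 40.0% and from 46.9% to 39.6%. It added Hoxb7 from E14.5 to AE (adjusted p = 0.0355) and changed no other Hox call. Depth limits the adult values most, since 1 count equals 0.114 CPM in AE replicate 3 and 0.0195 in E14.5 replicate 2.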
